A study of Mus musculus with 10 samples.

Results

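The genes described here are 10 genes of the NRF2 antioxidant response and of iron storage, namely Nfe2l2, Keap1, Hmox1, Nqo1, Txnrd1, Txn1, Srxn1, Prdx1, Fth1 and Ftl1. They were picked by symbol from a table of 33212 genes, and all 10 had a row and enough counts to be tested among 14156 genes. Expression was measured by sequencing of polyadenylated RNA in αTC1 cells, a mouse line of glucagon-producing α cells grown in low-glucose medium with serum. The line came from a pancreatic tumour of mice whose glucagon promoter drives a viral oncogene, so the cells proliferate and carry that transgene in both groups. One group of 5 libraries received 10 μM enzalutamide, an androgen receptor antagonist, for 48 h, and the other group of 5 received DMSO, its solvent, for 48 h. The labels call the 5 libraries of a group biological replicates, with no word on separate cultures or days, so the p-values here speak only to variation among the deposited libraries.

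NRF2, the protein of Nfe2l2, is a transcription factor that KEAP1 holds in the cytoplasm and passes to the proteasome. Oxidants and electrophiles modify cysteines of KEAP1, NRF2 then escapes, pairs with a small MAF protein and binds antioxidant response elements of genes for thiol repair, quinone reduction, heme breakdown and ferritin. BACH1 occupies the same elements as a repressor, and heme releases it. Ferritin is a hollow shell of heavy chains (Fth1) and light chains (Ftl1) that stores iron, and its mRNAs carry an iron-responsive element near the 5′ end through which iron controls their translation. Insulin-producing β cells of the islet are known for low levels of several peroxide-removing enzymes, which need not hold for α cells.

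Sites with the letters of the antioxidant response element and of the iron-responsive element are shown first. The core of the antioxidant response element was searched as the letters TGACNNNGC, on both strands, in the window from 250 bases before to 50 bases after each annotated start (RefSeq promoters, GRCm38.p6). A window was held for 9 of the 10 genes, all but Hmox1, and 4 of the 9 contained the letters. Among all 27025 genes with such a window 14.0% contained them. Sequence outside the window was not searched, so a gene without a match may still hold the letters farther away. In each line below the matching letters are in capitals, and a match describes the letters without showing that a factor binds there. The 3 matches that lie upstream of a start are given with flanks.
Prdx1, chr4:116685440-116685500, plus strand: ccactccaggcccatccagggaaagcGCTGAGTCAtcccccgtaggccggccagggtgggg
Txnrd1, chr10:82859088-82859148, plus strand: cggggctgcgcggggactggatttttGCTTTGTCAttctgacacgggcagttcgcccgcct
Nfe2l2, chr2:75704853-75704913, minus strand: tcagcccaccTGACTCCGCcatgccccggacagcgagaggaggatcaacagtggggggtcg
The match began at position -133 relative to the start in Prdx1, at -92 relative to one of 3 annotated starts in Txnrd1, and at -240 in Nfe2l2. In Prdx1 and Txnrd1 the letters read on the opposite strand of the gene, and the Prdx1 match also contains the AP-1 letters TGANTCA. The match of Srxn1 lies 28 bases after its start, on the opposite strand of the gene, and 30 bases around it are shown.
Srxn1, chr2:152105542-152105571, plus strand: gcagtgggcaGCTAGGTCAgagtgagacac

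The iron-responsive elements of the ferritin mRNAs were located in the 5′ UTR of GENCODE M21 transcripts by the letters CNNNNNCAGTG, the bulged C and the start of the loop. These letters stand in capitals below, with 30 bases of each site.
Fth1: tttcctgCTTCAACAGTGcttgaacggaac
Ftl1: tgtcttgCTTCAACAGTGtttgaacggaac
The 2 sites share 27 of the 30 bases. The loose letters CNNNNNCAGTG occurred in the 5′ UTR of 12.3% of 20899 genes, whereas the 11 letters that Fth1 and Ftl1 have in common occurred in 4 genes. Since this element acts on translation, counts of mRNA do not read it out.

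Enzalutamide-treated cells had more Hmox1, Ftl1 and Fth1 mRNA and less Txn1, Srxn1, Prdx1 and Keap1 mRNA. Hmox1 rose 1.56-fold, Ftl1 1.16-fold and Fth1 1.08-fold, while Txn1 fell to 0.733, Srxn1 to 0.805 and Prdx1 to 0.822 of the DMSO level. Keap1 fell to 0.935 of it. Nfe2l2, Txnrd1 and Nqo1 did not pass the test. In all, 3 of the 10 genes were called higher, where 19.0% of all tested genes were, and 4 were called lower, where 18.8% of all tested genes were. A gene was called where its adjusted p was under 0.05, using the quasi-likelihood test of edgeR and the Benjamini-Hochberg method on all 14156 genes. The median log2 fold change of the 10 genes was -0.09, against 0.01 over all genes tested. The groups' values did not overlap for 5 of the 10 (Nfe2l2, Hmox1, Txn1, Srxn1 and Prdx1), where 26.8% of all tested genes were free of overlap. Since 37.8% of all genes were called in either direction, a call alone does not set these genes apart. By size Hmox1 led, and 7.35% of tested genes had a larger absolute log2 fold change than it, compared with 14.0% for Txn1 and 63.8% for Fth1.

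**Figure D1:**
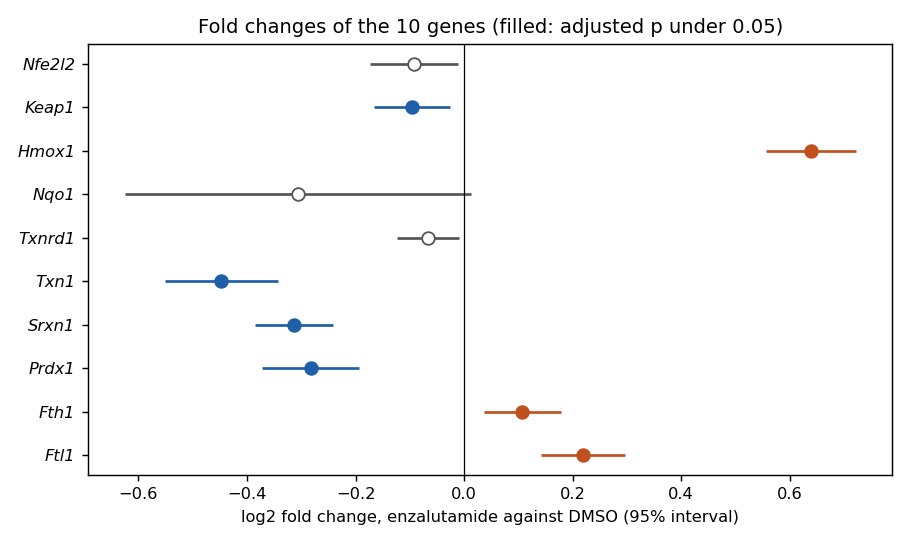
Log2 fold change of each of the 10 genes in enzalutamide against DMSO (x axis) with its 95% interval, 5 libraries per group. Filled points have an adjusted p under 0.05, orange for higher and blue for lower. Hmox1 at 0.64 stands to the right of the 9 others, and the interval of Nqo1 is the widest.

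The libraries held 59557697 to 68603842 counts, and the level is given as CPM, counts scaled to a common library size. A gene with 0 counts could still have had up to 3, or 0.0437 to 0.0504 CPM, by counting error alone. The totals of the groups overlapped (p = 0.262, exact permutation, two-sided). The 9 α cell markers checked summed to 20138 to 21306 CPM in DMSO and 12799 to 14256 CPM in enzalutamide, led by the glucagon gene, while the 6 markers of other islet cells summed to 1.05 to 1.94 CPM over all libraries, all of it Ins2 and Ghrl, with Ins1, Pdx1, Sst and Ppy at 0 counts. Markers of acinar, duct, fibroblast, blood and endothelial cells summed to at most 9.77 CPM per list. The 4 duct markers summed to 0.513 to 0.953 CPM in enzalutamide and 1.88 to 3.50 CPM in DMSO, mostly from Spp1, with Cftr and Krt19 at 0. The 5 fibroblast markers summed to 7.60 to 9.77 CPM in enzalutamide and 6.60 to 7.73 CPM in DMSO, ranges that overlap, with Lum at 0. Most of that sum was Pdgfra (5.99 and 7.75 CPM in DMSO and enzalutamide), while Col1a2 went the other way (1.06 and 0.394 CPM). The part of these markers in the results below was not tested. In bulk RNA fewer cells with a transcript and less of it per cell cannot be told apart.

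Nfe2l2 encodes NRF2 itself (ENSMUSG00000015839; chromosome 2, 75675513 to 75704641, minus strand, GRCm38/mm10). Its level in the 5 DMSO libraries was 53.4, 49.2, 49.6, 49.0 and 48.1 CPM, and in the 5 enzalutamide libraries 47.3, 47.5, 47.9, 45.3 and 45.9 CPM. Every enzalutamide value lay below every DMSO value, by a margin smaller than the spread within either group. The log2 fold change of -0.09 (SE 0.0410, 95% interval -0.17 to -0.01) did not pass (edgeR's quasi-likelihood test, adjusted p = 0.0892). The amount of NRF2 protein is set mainly by its breakdown, which RNA counts do not measure.

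Keap1 encodes the adaptor that presents NRF2 to the CUL3 ubiquitin ligase (ENSMUSG00000003308; chromosome 9, 21229730 to 21239361, minus strand). It read 99.7, 108, 101, 111 and 105 CPM in DMSO and 97.9, 96.3, 99.9, 98.9 and 96.9 CPM in enzalutamide. The enzalutamide values were the tighter group and overlapped the low end of the DMSO values. The difference was small and near the threshold (log2 fold change -0.10, SE 0.0357, adjusted p = 0.0414 in edgeR's quasi-likelihood test). Scaling to total counts gave an adjusted p of 0.193, and the call was also lost on leaving out library 2, 4 or 5 of DMSO or any 1 of enzalutamide (adjusted p up to 0.126). After removal of trends with GC content and length the log2 fold change of Keap1 was -0.18 (adjusted p = 0.000364). Its exons share 510 bases with Gm16754 on the opposite strand, which had 1488 counts over all libraries beside 66690 for Keap1, and without a stated strand setting their reads cannot be told apart.

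Hmox1 encodes heme oxygenase 1, which opens heme to biliverdin, carbon monoxide and free iron (ENSMUSG00000005413; chromosome 8, 75093621 to 75100589, plus strand). DMSO libraries read 43.1, 39.5, 41.8, 40.3 and 42.7 CPM, and enzalutamide libraries 62.7, 68.6, 65.8, 62.5 and 63.3 CPM. The lowest enzalutamide value exceeded the highest DMSO value, and both groups were tight. Means were 41.5 ± 1.55 and 64.6 ± 2.60 CPM (SD, n = 5 each), or 0.64 ± 0.0421 higher on the log2 scale (SE; adjusted p = 3.24e-09 in edgeR's quasi-likelihood test). Its paralogue Hmox2, the constitutive heme oxygenase, was at 21.3 ± 1.75 and 20.8 ± 1.12 CPM (adjusted p = 0.717), so that Hmox1 was the more abundant of the pair by counts in both groups, without correction for transcript length.

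Nqo1 encodes a quinone reductase that is often used as an index of NRF2 activity (ENSMUSG00000003849; chromosome 8, 107388225 to 107403206, minus strand). It was scarce in this line, with 124 to 256 counts per library. It ranged from 2.87 to 3.89 CPM in DMSO and from 1.86 to 3.18 CPM in enzalutamide, with overlap. The log2 fold change was -0.31 (SE 0.163, 95% interval -0.63 to 0.01, adjusted p = 0.157 in edgeR's quasi-likelihood test). That interval leaves room for a fall of the size seen in Txn1, and excludes a rise of the size seen in Hmox1.

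Txnrd1 encodes cytosolic thioredoxin reductase, a selenoprotein that passes electrons from NADPH to thioredoxin (ENSMUSG00000020250; chromosome 10, 82833951 to 82897712, plus strand). It ranged from 441 to 481 CPM in DMSO and from 432 to 454 CPM in enzalutamide. The groups overlapped, and the log2 fold change of -0.07 with SE 0.0288 (adjusted p = 0.0798 in edgeR's quasi-likelihood test) did not pass. Once trends with GC content and length were taken out, Txnrd1 had an adjusted p of 0.0146 at a log2 fold change of -0.08, and it was also under the threshold without DMSO library 1.

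Txn1, thioredoxin, is the small dithiol protein that this reductase recharges (ENSMUSG00000028367; chromosome 4, 57943373 to 57956411, minus strand). DMSO libraries read 182, 164, 175, 167 and 164 CPM, and enzalutamide libraries 126, 137, 131, 124 and 107 CPM. No enzalutamide value reached the DMSO range, and enzalutamide library 5 was the lowest. Means were 170.4 ± 7.85 and 125 ± 11.4 CPM, or -0.45 ± 0.0533 on the log2 scale (SE; adjusted p = 3.89e-06 in edgeR's quasi-likelihood test), the largest fall of the 10 genes. The reductase was not called while its substrate was, and the difference between the 2 genes was not tested.

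Srxn1, sulfiredoxin, restores peroxiredoxins whose cysteine has been overoxidized (ENSMUSG00000032802; chromosome 2, 152105516 to 152111376, plus strand). DMSO libraries read 108, 115, 116, 115 and 109 CPM, and enzalutamide libraries 95.8, 90.9, 88.7, 86.4 and 92.2 CPM. The groups were separate, and their SDs (3.90 and 3.56 CPM) were small beside the gap. Srxn1 fell by 0.31 ± 0.0367 on the log2 scale (SE; adjusted p = 3.22e-06 in edgeR's quasi-likelihood test).

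Prdx1, an abundant peroxiredoxin that reduces hydrogen peroxide with electrons from thioredoxin, is the substrate of sulfiredoxin (ENSMUSG00000028691; chromosome 4, 116685544 to 116700822, plus strand). It read 340.0, 314, 361, 336 and 329.7 CPM in DMSO and 274, 294, 289, 279 and 246 CPM in enzalutamide. The ranges did not meet, and library 5 was again the lowest of the enzalutamide group. The log2 fold change was -0.28 (SE 0.0452, adjusted p = 8.7e-05 in edgeR's quasi-likelihood test). The mRNAs of thioredoxin, peroxiredoxin 1 and sulfiredoxin all fell, by 1.36-, 1.22- and 1.24-fold.

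**Figure D2:**
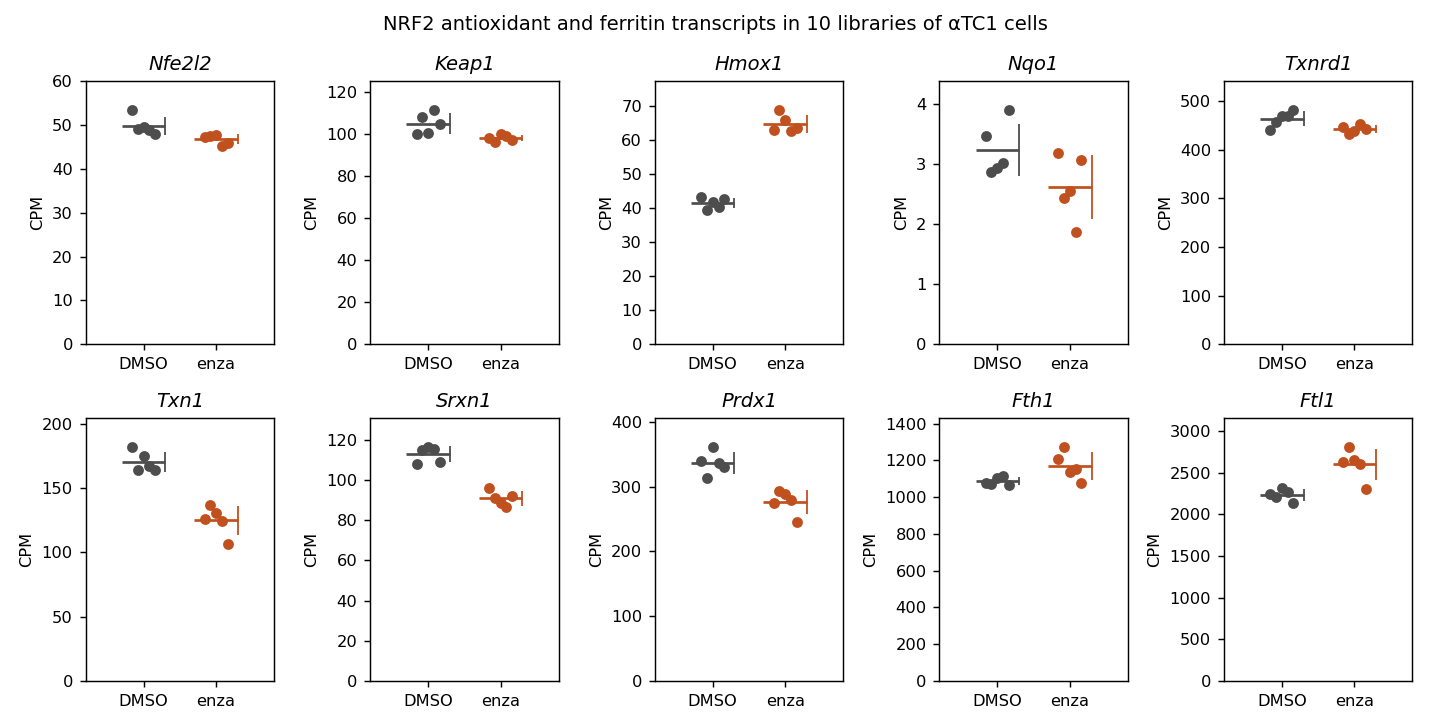
CPM (y axis, from 0) of each of the 10 genes in every library, DMSO in grey and enzalutamide (enza) in orange. Horizontal lines are group means and vertical lines 1 SD on either side (n = 5). Hmox1 is separated upwards and Txn1, Srxn1 and Prdx1 downwards, while Nqo1 and Txnrd1 overlap.

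Ftl1 and Fth1 encode the light and heavy chains of ferritin, and the heavy chain oxidizes iron for storage. Ftl1 (ENSMUSG00000050708; chromosome 7, 45457944 to 45459884, minus strand) read 2246, 2213, 2314, 2267 and 2129.8 CPM in DMSO and 2629.6, 2807, 2649.8, 2609 and 2304 CPM in enzalutamide. Of the enzalutamide libraries, 4 lay above all DMSO libraries and library 5 lay within their range. Ftl1 rose by 0.22 ± 0.0397 on the log2 scale (SE; adjusted p = 0.000295 in edgeR's quasi-likelihood test). Fth1 (ENSMUSG00000024661; chromosome 19, 9980598 to 9985098, plus strand) read 1076, 1074, 1104, 1115 and 1065 CPM in DMSO and 1207, 1274, 1139, 1155 and 1077 CPM in enzalutamide. The pattern was that of Ftl1 at a smaller size, with library 5 again inside the DMSO range. The log2 fold change of Fth1 was 0.11 (SE 0.0362, adjusted p = 0.0272), and leaving out DMSO library 1, 2 or 5, or else library 1 or 2 of the treated group, ended the call at an adjusted p of up to 0.0727.

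Together Fth1 and Ftl1 took 0.328 ± 0.00899% of all counts with DMSO and 0.381 ± 0.0240% after enzalutamide (SD, n = 5 each). The lowest enzalutamide library, at 0.343%, stood above the highest DMSO library, at 0.338% (p = 0.00794 by exact permutation, two-sided, which is the minimum for groups of 5). This share is of the raw total of each library, without the scaling used for CPM. In CPM, enzalutamide library 5 lay inside the DMSO range for both genes, so the separation of the groups depends on the scaling. For each count of Fth1 there were 2.06 ± 0.0400 counts of Ftl1 with DMSO and 2.22 ± 0.0725 with enzalutamide (p = 0.00794 by exact permutation), and the groups did not overlap. After removal of GC and length trends the log2 fold changes were 0.15 for Ftl1 and 0.12 for Fth1, closer to each other than the 0.22 and 0.11 without it. The length used for that removal counted exons of all annotated transcripts, 1340 bases for Ftl1 and 3469 for Fth1. Their principal mRNAs are of similar length, at 968 and 929 bases, so the removal treated the 2 genes as less alike than their mRNAs are. The share and the ratio are in counts, without correction for length. GENCODE M21 lists 8 processed pseudogenes with at least 90% identity to Ftl1, 3 to Prdx1 and 1 each to Fth1 and Txn1. These copies were not analysed here, and how multi-mapping reads were counted is not given in the sources used here. In that respect the levels of these 4 genes are less certain than those of the other 6. Exons of Ftl1 also share 109 bases with the miRNA gene Gm22133 on the same strand, which had 400 counts over all libraries. They share 355 bases with Gm10252 on the opposite strand, which was not analysed here.

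Within the enzalutamide group Txn1, Prdx1, Fth1 and Ftl1 were each highest in library 2 and lowest in library 5. Nfe2l2, Hmox1, Nqo1 and Srxn1 were lowest in library 4 instead, and Keap1 and Txnrd1 in library 2. Over all genes, the share that was lowest within its group was larger in enzalutamide library 5 than in any other library. Low values in that library are thus not particular to Txn1, Prdx1, Fth1 and Ftl1. Libraries 2 and 5 also stood at the ends of a trend with exon length. The fifth of genes with the shortest exon length deviated from their group mean by a median of 0.08 on the log2 scale in library 2 and of -0.09 in library 5, and the fifth with the longest by -0.07 and 0.07. In the other 8 libraries both medians lay between -0.03 and 0.03. The shortest genes had up to 2754.6 exon bases, counted over all annotated transcripts of a gene. Txn1 (1051) and Ftl1 (1340) were under that limit, and Prdx1 (3043) and Fth1 (3469) were above it. The principal mRNAs of Prdx1 and Fth1 are shorter than these figures and under the limit, at 2294 and 929 bases. Hmox1 (1751) was also highest in library 2 (deviation 0.087), but lowest in library 4 (-0.046). Nqo1 (1553), with a mean under 10 CPM, was at -0.073 in library 2 and 0.21 in library 5. Whether length had a part in the pattern of Txn1, Prdx1, Fth1 and Ftl1 was not tested. Without libraries 2 and 5 the log2 fold changes were -0.42 for Txn1, -0.26 for Prdx1, 0.10 for Fth1 and 0.24 for Ftl1, and all 4 passed. With GC and length trends removed from every library they were -0.41, -0.26, 0.12 and 0.15, and again all 4 passed.

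**Figure D3:**
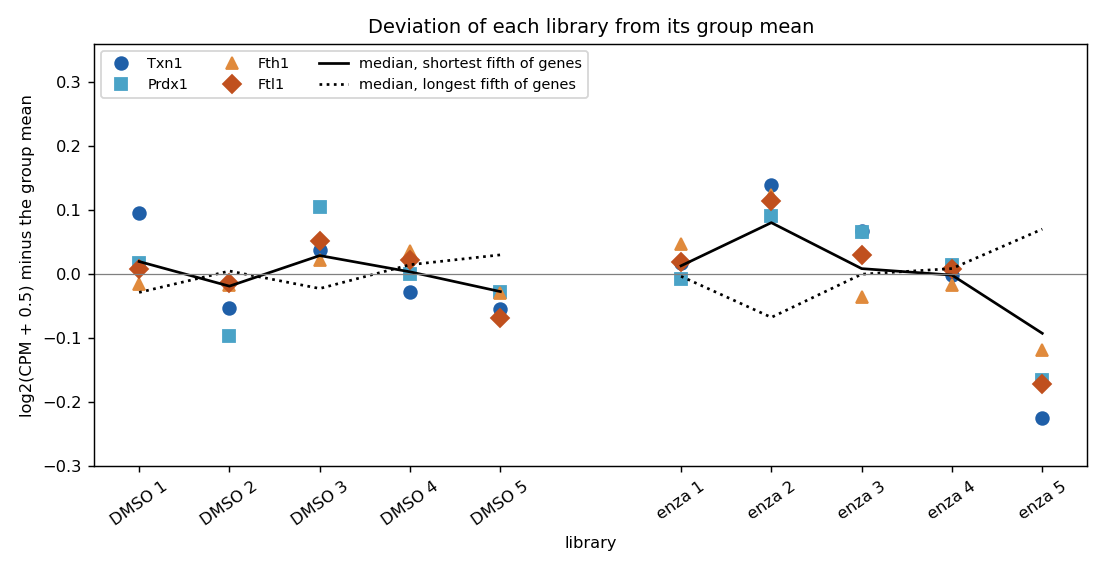
Deviation of log2(CPM + 0.5) from the group mean (y axis) in each library (x axis), for Txn1, Prdx1, Fth1 and Ftl1 (points). Black lines give the median deviation of the fifth with the shortest (solid) and the fifth with the longest (dotted) exon length, among genes with a mean of at least 10 CPM. All 4 genes are highest in enzalutamide library 2 and lowest in library 5, where the solid line is at 0.08 and -0.09. Over all annotated transcripts Prdx1 and Fth1 have more exon bases than the genes of the solid line. Their principal mRNAs have 2294 and 929 bases.

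Per length, ferritin mRNA stood far above the rest. In DMSO, CPM divided by the length of the principal mRNA in kilobases was 2308 ± 71.2 for Ftl1 and 1169.8 ± 23.1 for Fth1. Txn1 (162 ± 7.47), Prdx1 (147 ± 7.50) and Txnrd1 (139.5 ± 4.55) came next on that scale, and neighbours in this trio overlapped between libraries. Srxn1 (40.1 ± 1.39), Keap1 (29.0 ± 1.35), Hmox1 (26.4 ± 0.986), Nfe2l2 (20.1 ± 0.833) and Nqo1 (2.08 ± 0.280) followed, each separate from the next over the 5 DMSO libraries. In enzalutamide Hmox1, at 41.2 ± 1.66 CPM per kilobase, ranked above Srxn1 (32.3 ± 1.27) and Keap1 (27.1 ± 0.404). Txnrd1, at 133 ± 2.51, then ranked above Prdx1 (120.5 ± 8.15) and Txn1 (119 ± 10.8). Annotated lengths are an approximation, since the mRNA ends in use in this line are not known.

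The machinery around NRF2 was examined in a list of 12 further genes, of which 11 could be tested. Of these 4 rose and 1 fell, where 19.0% of all tested genes rose and 18.8% fell, with a median log2 fold change of 0.06. Nfe2l1, a relative of NRF2 that serves the proteasome response, rose 1.43-fold, with 211, 217, 221, 221 and 217 CPM in DMSO and 316, 307, 300.1, 318 and 312 CPM in enzalutamide (adjusted p = 3.05e-10). All of its enzalutamide values exceeded all DMSO values. Mafg, a small MAF partner (log2 fold change 0.20, SE 0.0297), Sqstm1, the autophagy receptor p62 that binds KEAP1 (0.24, SE 0.0346), and the repressor gene Bach1 (0.24, SE 0.0432, adjusted p = 0.000224) rose too, each without overlap between groups. Bach2, a relative of Bach1, fell (-0.53, SE 0.108), and Cul3, the ligase scaffold, just missed the threshold (-0.08, SE 0.0297, adjusted p = 0.0506). Thus transcripts of an NRF2 partner and of a competitor of NRF2 were both higher, while Nfe2l2 itself was not called.

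Other genes known as NRF2 targets did not move one way. Of 25 listed, 19 were tested, 4 rose, 6 fell and 9 did not pass, with a median log2 fold change of -0.07. Over all tested genes 19.0% rose, close to the share of this list, and 18.8% fell. Slc7a11, the cystine importer, which also responds to ATF4, rose 2.71-fold from 8.70, 7.45, 8.80, 9.09 and 8.45 CPM to 23.3, 20.01, 24.5, 23.4 and 23.8 CPM (adjusted p = 9.63e-11). Gstm1, a glutathione transferase, rose 2.04-fold from 18.2 ± 1.40 to 37.2 ± 2.72 CPM. Both genes were separate between groups and rose by more than any of the 10 genes. Idh1, an NADPH-making isocitrate dehydrogenase, and Gclc, the catalytic subunit of glutathione synthesis, rose by 0.24 and 0.15 on the log2 scale. Gclm, the modifier subunit of the same enzyme, was at 115 CPM in both groups (log2 fold change -0.00, SE 0.0447, adjusted p = 0.967). Among the genes that fell were enzymes of the pentose phosphate pathway, among them Taldo1 (-0.41, SE 0.0395) and Pgd (-0.36, SE 0.0371). Ugdh, a maker of glucuronate donors (-0.18), and Gsr, glutathione reductase (-0.12, adjusted p = 0.0261), fell too. The call of Gsr was lost with total-count scaling (adjusted p = 0.0984) and on leaving out library 1 or 5 of DMSO or 1 or 4 of enzalutamide (up to 0.0785).

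In the rest of the thioredoxin and peroxiredoxin system 6 of 17 tested genes fell and 1 rose (all tested genes, 18.8% and 19.0%), with a median of -0.10. Txnip, the protein that binds and blocks thioredoxin, fell most, from 92.2 ± 3.18 to 55.7 ± 1.89 CPM, or by 0.73 ± 0.0374 on the log2 scale (SE; adjusted p = 1.29e-10). Txnip is also a reporter of glucose sensing, and its fall was larger than that of Txn1 on the log2 scale, a difference that was not tested. Txnl1, a thioredoxin-like protein of the proteasome, fell by 0.28 and Prdx2, a cytosolic peroxiredoxin, by 0.16 on the log2 scale. The gene that rose was Glrx2, a mitochondrial glutaredoxin (0.18, SE 0.0493, adjusted p = 0.00691).

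Enzymes that remove superoxide and peroxide were tested for 5 of 10 listed genes, and 2 of them fell, against 18.8% of all tested genes. Gpx1, cytosolic glutathione peroxidase, read 96.2, 90.2, 95.2, 94.8 and 90.1 CPM in DMSO and 68.6, 78.5, 71.9, 74.6 and 58.8 CPM with the drug, a fall by 0.40 ± 0.0583 on the log2 scale. Sod1, the cytosolic superoxide dismutase, read 210.1, 199.7, 209.6, 207 and 198 CPM in DMSO and 182, 189, 173, 173 and 149 CPM with the drug (-0.24, SE 0.0491, adjusted p = 0.000801). In both genes the groups were separate, and library 2 was highest and library 5 lowest within enzalutamide, as for Txn1 and Prdx1. The mitochondrial dismutase gene Sod2 (-0.04, adjusted p = 0.289) and Gpx4, which protects membrane lipids (0.04, adjusted p = 0.553), did not pass, and the sign for Gpx4 was negative once GC and length trends were removed (-0.05) and without enzalutamide library 2 (-0.01). Cat, catalase, was close to absent at 0.847 ± 0.252 and 0.982 ± 0.169 CPM.

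Iron handling genes around ferritin gave 3 rises and 4 falls among 17 tested, with a median of -0.01. These shares are near the 19.0% and 18.8% of all tested genes. Tfrc, the transferrin receptor that brings iron into the cell, read 533, 553, 524, 509.8 and 554 CPM in DMSO and 406, 402, 416, 412 and 448 CPM with the drug, a fall by 0.36 ± 0.0342 on the log2 scale (adjusted p = 2.9e-07). The groups were separate, and the direction was opposite to that of Ftl1 and Fth1. The exporter gene Slc40a1 was low and rose from 2.56 ± 0.526 to 3.54 ± 0.704 CPM with overlap (adjusted p = 0.0435), and the call was lost when DMSO library 1, 2, 4 or 5 or enzalutamide library 2, 3, 4 or 5 was left out (up to 0.109). The iron-regulatory proteins that bind the ferritin elements shown above come from Aco1 (-0.10, adjusted p = 0.0663) and Ireb2 (-0.09, adjusted p = 0.108), neither of which passed. Of the chaperones that carry iron to ferritin, Pcbp1 fell (-0.16, SE 0.0324) and Pcbp2 rose (0.15, SE 0.0297). Ncoa4, which delivers ferritin to autophagy, fell (-0.16, SE 0.0452, adjusted p = 0.0105). The mitochondrial iron importer gene Slc25a28 rose by 0.16 on the log2 scale (adjusted p = 0.028), a call lost with GC and length trends removed and on leaving out library 2 or 3 of DMSO or 1, 2 or 4 of enzalutamide (up to 0.0779).

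Heme genes beside Hmox1 gave 1 rise and 3 falls among 12 tested (all tested genes, 19.0% and 18.8%), with a median of -0.05. Blvra, which reduces the biliverdin that heme oxygenase makes, fell from 17.2 ± 1.77 to 12.5 ± 1.74 CPM, by 0.46 ± 0.0944 on the log2 scale (adjusted p = 0.000951), with no overlap. Its direction was opposite to that of Hmox1. Alas1, the first enzyme of heme synthesis, fell by 0.23 and Alad, the second, by 0.12 on the log2 scale. The heme transporter gene Slc48a1 rose by 0.09 (adjusted p = 0.0422). After removal of GC and length trends Slc48a1 had an adjusted p of 0.415, and its call was lost on leaving out any single library but DMSO 4 and enzalutamide 5 (up to 0.105). The call of Alad was lost with total-count scaling (adjusted p = 0.131) and without a filter on low counts. It was also lost on leaving out any single library but DMSO 1 and enzalutamide 2 (up to 0.0951).

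**Figure D4:**
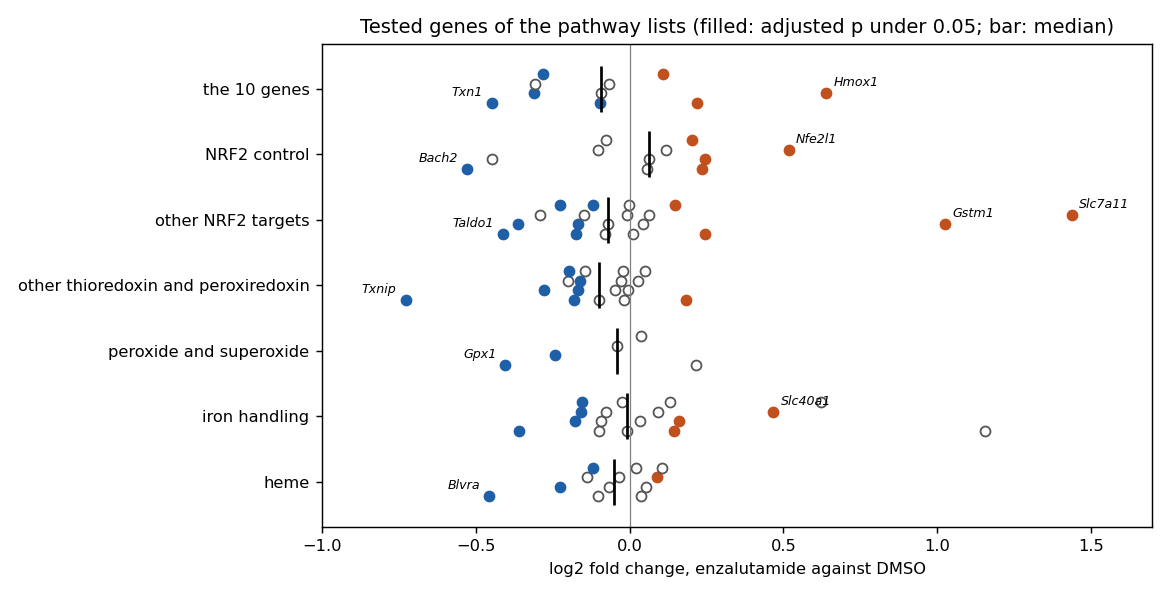
Log2 fold change in enzalutamide against DMSO (x axis) of every tested gene in the 10 genes and the 6 further lists (rows), with the vertical bar at the list's median. Filled points have an adjusted p under 0.05, orange for higher and blue for lower, and names are given for called genes beyond 0.4 on either side. Medians lie between -0.10 and 0.06, and called genes lie on both sides of 0 in all lists but that of peroxide and superoxide.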

How the data were processed

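Polyadenylated RNA of αTC1 cells was sequenced in 5 DMSO and 5 enzalutamide libraries. HISAT2, StringTie and DESeq2 stand in the submitters' processing notes, with build mm10 and no roles. The authors deposited whole-number counts per Ensembl gene (33212 genes), and a second table that the authors deposited holds a signal scaled by library. In all 20039 genes matched by a unique symbol, this signal times 1 factor per library (0.923 to 1.04) gave the count within 0.1. All columns matched a sample by name.

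The counts went into edgeR 4.0.16 under R 4.3.3: filterByExpr left 14156 genes, scaling was by trimmed mean of M values, and the quasi-likelihood test had no covariates, with Benjamini-Hochberg adjustment over all genes and a threshold of 0.05. SE is the absolute log2 fold change over the square root of F, and 95% intervals use a normal quantile. Alternatives used limma 3.58.1, DESeq2 1.42.0, other scalings and filters, a replicate block and omission of libraries. Removal of GC and length trends and the joint omission of enzalutamide libraries 2 and 5 were added after the data were seen. Libraries of a group always differed by more than sampling noise (chi-square over its degrees of freedom, 9.25 to 38.1). On data simulated for 14156 genes with the sizes of these libraries, the test of enzalutamide against DMSO recovered 38% of genes changed 1.2-fold and 98% of those changed 1.5-fold.

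The 10 genes and 6 lists were chosen with earlier results of these data known. Genes named were the 10, up to 3 called members per list and direction by lowest adjusted p, and 18 fixed genes. Positions came from GENCODE M21 (96.3% of identifiers found), promoters from RefSeq on GRCm38.p6, and pseudogene matches from blastn 2.17.0 at 90% identity over 50% of length. The iron-responsive letters were chosen after the data were seen. A single gene of the lists is left out of the text.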

Additional observations from a re-analysis of the deposited data

Results flagged for a closer look

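In 94 groups of 5 values checked for the named genes, 4 held a value whose gap to its nearest neighbour was more than 0.71 of the group's range, and chance flags about 1 in 20 groups. Nfe2l2 was highest in DMSO library 1, at 53.4 CPM, where the other 4 DMSO libraries lay between 48.1 and 49.6 CPM. Without that library the log2 fold change of Nfe2l2 was -0.07. Slc7a11 was lowest in enzalutamide library 2, at 20.01 CPM, with the others between 23.3 and 24.5 CPM. Glrx2 was lowest in enzalutamide library 3, at 25.0 CPM, with the others between 27.9 and 28.2 CPM. Alad was highest in enzalutamide library 2, at 64.9 CPM, with the others between 56.5 and 58.3 CPM.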

How the results depend on the processing

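Of the 10 genes, Nfe2l2, Hmox1, Nqo1, Txn1, Srxn1, Prdx1 and Ftl1 kept direction and side of the threshold in every alternative run, and Keap1, Txnrd1 and Fth1 kept direction only. Hmox1 ranged from 0.62 to 0.67, Txn1 from -0.48 to -0.39, Srxn1 from -0.34 to -0.28, Prdx1 from -0.31 to -0.24 and Ftl1 from 0.15 to 0.26 on the log2 scale. Over all genes, 2696 were higher and 2662 lower (50.3% higher). With total-count scaling 3285 were higher and 2131 lower (60.7% higher), a median shift of 0.03. In the NRF2 machinery list, 2 genes fell in place of 1 with relative log expression scaling, a mean CPM of at least 1, DESeq2, limma-voom, limma-trend with either pseudocount, the replicate block, GC and length trends removed, and without enzalutamide libraries 2 and 5, and 1 to 2 fell when single libraries were left out. In the iron list 1 gene rose without a filter, 5 with a mean CPM of at least 1 or DESeq2, and 1 to 3 when single libraries were left out. In the heme list 2 genes rose with total-count scaling, 0 without a filter, with the replicate block or with GC and length trends removed, and 0 to 1 when single libraries were left out, while 5 fell with GC and length trends removed. The cause was not tested. The replicate numbers did not pair the libraries (correlation of same-numbered deviations -0.17 to 0.30, and 1 of 5 DMSO libraries correlated best with its own number), and with the replicate block 5296 genes were called in place of 5358, and Keap1 was not called (adjusted p = 0.0577). Depth limits Nqo1 most of the 10 genes, at 124 to 256 counts per library, where the SD between libraries was 13.4% and 20.3% of the mean.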
